A study of Mus musculus with 6 samples.

Results

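Lcn2, Slpi, Ptx3, Saa3 and S100a8, genes of secreted acute-phase and antimicrobial proteins, were all lower in Nfkbiz knockout (Nfkbiz KO) D4M-3A mouse melanoma cells than in control (Ctrl) cells, by 15.6-fold for Lcn2 and 2.49-fold for S100a8. They belong to a set of 10 genes chosen by name, with earlier results of these data known. The set is Lcn2, Saa3, Saa1, Saa2, Ptx3, Hp, Slpi, Orm1, S100a8 and S100a9, which are 10 of the 43043 genes listed in every sample. The other 5 genes of the set had too few reads for the test, and 4 of them stayed at the detection floor in all 6 samples.

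Acute-phase proteins are released in large amounts when interleukin-1, interleukin-6 and related cytokines signal injury or infection, mainly by the liver but also by epithelial, stromal and tumor cells. Lcn2 encodes lipocalin 2, which starves bacteria by holding their iron-scavenging siderophores. Other proteins of the set bind lipids, mark microbes, capture free hemoglobin or inhibit neutrophil proteases. IκBζ, the product of Nfkbiz, is an atypical IκB protein that acts in the nucleus with NF-κB on a restricted group of inflammatory genes, of which Lcn2 is a textbook example.

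RNA of 3 Ctrl and 3 Nfkbiz KO samples was sequenced. Cells of both groups had been transduced by lentivirus with a CRISPR-Cas9 construct and selected with puromycin, and the Ctrl construct was empty whereas the other targeted Nfkbiz. The labels name no stimulus, and the sources used here do not say whether the knockout cells were a pool or a clone. The study describes 3 independent experiments per condition, whereas the labels do not say that the samples came from separate cultures.

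The samples had 32219900 to 44927203 reads counted on genes, so that 3 reads, taken as the detection floor, correspond to 0.0668 to 0.0931 CPM, a read count scaled to the size of its library. The floor and the intervals of reads cover counting error only. Differential expression was tested on read counts with edgeR's quasi-likelihood test, and adjusted p-values are Benjamini-Hochberg values over the 14419 genes tested. Levels are given in TPM, which is normalized for transcript length and depth. Nfkbiz had 69.1, 75.2 and 63.45 TPM in Ctrl replicates 1, 2 and 3 and 34.8, 34.7 and 35.15 TPM in Nfkbiz KO, with a log2 fold change of -0.98 (SE 0.056, adjusted p = 6e-08, edgeR). Reads were counted whether or not a transcript was edited, and they do not measure the protein. For the protein, the study reports an immunoblot of IκBζ in D4M-3A cells that showed efficient depletion. Of 7 melanocyte markers, Sox10 and Tyr had 0 reads in all samples and 5 were at the floor throughout, whereas Mitf (0.951 TPM in Ctrl, 0.953 in Nfkbiz KO) and Pmel were above it. In bulk RNA, fewer expressing cells and less RNA per expressing cell cannot be told apart.

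The 250 bases before the annotated start are shown for the 5 tested genes and for Saa1, which had no reads, for contrast. They were read 5′ to 3′ on the strand of each gene from RefSeq's table for GRCm38.p6, which held 8 of the 10 genes. Capitals mark matches, on either strand, to TTNNGNAA, a loose form of the site of C/EBP factors, which are classical activators of acute-phase genes. The windows are Lcn2 at chr2:32387740-32387989 on the minus strand, Slpi at chr2:164356508-164356757 on the minus strand, Ptx3 at chr3:66219637-66219886 on the plus strand, Saa3 at chr7:46715677-46715926 on the minus strand, S100a8 at chr3:90668821-90669070 on the plus strand and Saa1 at chr7:46742981-46743230 on the minus strand.
Lcn2: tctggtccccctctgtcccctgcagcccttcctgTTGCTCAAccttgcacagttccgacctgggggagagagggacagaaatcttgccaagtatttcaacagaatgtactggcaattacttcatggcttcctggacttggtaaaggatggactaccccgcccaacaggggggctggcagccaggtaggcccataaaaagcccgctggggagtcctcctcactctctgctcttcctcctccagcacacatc
Slpi: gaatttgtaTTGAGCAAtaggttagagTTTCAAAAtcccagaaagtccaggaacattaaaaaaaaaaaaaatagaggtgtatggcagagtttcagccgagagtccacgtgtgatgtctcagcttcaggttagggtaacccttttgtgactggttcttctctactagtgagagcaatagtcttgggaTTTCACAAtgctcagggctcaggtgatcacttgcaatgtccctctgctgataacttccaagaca
Ptx3: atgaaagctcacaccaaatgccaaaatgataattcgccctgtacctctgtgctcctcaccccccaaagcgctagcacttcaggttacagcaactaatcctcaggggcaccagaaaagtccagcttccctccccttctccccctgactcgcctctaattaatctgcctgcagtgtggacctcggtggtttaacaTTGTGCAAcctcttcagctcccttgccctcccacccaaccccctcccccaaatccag
Saa3: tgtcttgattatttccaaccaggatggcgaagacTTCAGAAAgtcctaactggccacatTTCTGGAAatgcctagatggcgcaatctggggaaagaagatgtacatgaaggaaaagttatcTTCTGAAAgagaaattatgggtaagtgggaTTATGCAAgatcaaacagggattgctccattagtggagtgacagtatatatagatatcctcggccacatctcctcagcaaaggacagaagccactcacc
S100a8: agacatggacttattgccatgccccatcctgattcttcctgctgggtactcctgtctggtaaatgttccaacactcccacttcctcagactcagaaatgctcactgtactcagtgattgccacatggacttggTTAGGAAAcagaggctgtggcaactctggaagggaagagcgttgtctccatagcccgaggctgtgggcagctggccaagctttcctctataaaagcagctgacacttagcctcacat
Saa1: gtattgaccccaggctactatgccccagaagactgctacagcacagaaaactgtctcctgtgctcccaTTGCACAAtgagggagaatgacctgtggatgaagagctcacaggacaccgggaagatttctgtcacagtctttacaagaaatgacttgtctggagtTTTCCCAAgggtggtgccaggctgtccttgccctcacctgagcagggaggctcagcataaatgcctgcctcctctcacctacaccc

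The C/EBP letters were present in all 8 windows available, including those of Saa1, Saa2 and S100a9, against 36.8% of the 32851 promoter windows of the same length. Saa3 had 4 matches, Slpi 3, and Lcn2, Ptx3 and S100a8 had 1 each. The NF-κB consensus GGGRNWYYCC was in 0 of the 8 windows (3.9% of all windows), and TTCNNNGAA, the core letters of a STAT site, was also in 0 (7.02%). At these low shares, 0 of 8 windows does not set these genes apart. The TATA box letters TATAAA were found in S100a8 alone of the 8 (12.4%). A match describes letters and not a bound site. Sites that deviate from these letters, or lie outside these windows, were not searched. Genes with and without reads both carried the C/EBP letters. The windows of Saa1 and Saa2 were 94.8% identical, and those of Saa1 and Saa3 52.2%.

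Lcn2 (chromosome 2, 32274645 to 32278264 of GRCm39, minus strand) had 5333, 6751 and 8261 reads in Ctrl replicates 1, 2 and 3 and 372, 428 and 527 reads in Nfkbiz KO. In TPM, its levels were 197, 237 and 238 in Ctrl and 15.7, 14.6 and 15.9 in Nfkbiz KO. The Ctrl samples were all high, the Nfkbiz KO samples were all low and close to each other, and the groups did not overlap. The mean fell from 224 ± 23.7 to 15.4 ± 0.677 TPM (SD, n = 3 each). The log2 fold change was -3.96 (SE 0.090, adjusted p = 3.6e-11, edgeR), the 10th lowest of the 14419 genes tested. Lcn2 RNA remained well above the floor in every Nfkbiz KO sample.

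Slpi encodes the secretory leukocyte protease inhibitor, which blocks neutrophil elastase and kills some bacteria. It lies on chromosome 2 from 164195990 to 164231015 of GRCm39, minus strand, and had 2089, 2278 and 3186 reads in Ctrl and 194, 228 and 261 reads in Nfkbiz KO. In TPM these were 169.8, 176 and 202.5 in Ctrl and 18.1, 17.15 and 17.18 in Nfkbiz KO. Each Nfkbiz KO sample was far below each Ctrl sample. The mean fell from 183 ± 17.4 to 17.5 ± 0.541 TPM (SD, n = 3 each), which gave a log2 fold change of -3.49 (SE 0.099, adjusted p = 2.2e-10, edgeR) or 11.2-fold. Its gene model overlaps Matn4 on the same strand, which had at most 7 reads in any sample.

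Ptx3 encodes pentraxin 3, a soluble pattern recognition protein that marks microbes and helps to assemble the hyaluronan matrix. It lies on chromosome 3 from 66127331 to 66133226 of GRCm39, plus strand, and had the lowest TPM of the 5. Its reads were 153, 196 and 183 in Ctrl and 20, 22 and 25 in Nfkbiz KO. In TPM these were 5.36, 6.56 and 5.08 in Ctrl and 0.830, 0.738 and 0.738 in Nfkbiz KO, without overlap. The means were 5.67 ± 0.786 and 0.769 ± 0.0529 TPM (SD, n = 3 each), with a log2 fold change of -3.01 (SE 0.19, adjusted p = 1.2e-07, edgeR) or 8.06-fold, and of -1.91 with limma on log2(TPM + 1). Counting ignored strand and Ptx3 overlaps Veph1 on the other strand, which had 0 to 6 reads per sample.

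Saa3 encodes an inducible serum amyloid A made outside the liver, an apolipoprotein of high-density lipoprotein. It lies on chromosome 7 from 46361422 to 46365576 of GRCm39, minus strand, and had 626, 829 and 992 reads in Ctrl and 100, 122 and 142 reads in Nfkbiz KO. Its TPM values were 23.05, 29.1 and 28.4 in Ctrl and 4.23, 4.14 and 4.285 in Nfkbiz KO. The Nfkbiz KO values were nearly equal and lay below every Ctrl value. The mean of 26.8 ± 3.30 TPM in Ctrl fell to 4.22 ± 0.0718 TPM (SD, n = 3 each), which was 6.82-fold (log2 fold change -2.77, SE 0.11, adjusted p = 3.9e-09, edgeR). The neighboring relatives Saa1 and Saa2, the main circulating forms made by the liver, were at the floor. Saa1 had 0 reads in all 6 samples, and Saa2 had 0, 3 and 0 reads in Ctrl and 0 in each Nfkbiz KO sample.

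S100a8 encodes a subunit of calprotectin, which withholds zinc and manganese from microbes and is abundant in neutrophils. It lies on chromosome 3 from 90567118 to 90578128 of GRCm39, plus strand, and had 78, 111 and 135 reads in Ctrl and 45, 43 and 42 reads in Nfkbiz KO. As TPM, the Ctrl samples had 10.9, 14.8 and 14.6 and the Nfkbiz KO samples 7.21, 5.57 and 4.79. The groups did not overlap, but the gap between the lowest Ctrl and the highest Nfkbiz KO sample was the narrowest of the 5. The means were 13.45 ± 2.19 and 5.86 ± 1.24 TPM (SD, n = 3 each), and the log2 fold change was -1.32 (SE 0.22, adjusted p = 0.00055, edgeR). S100a9, the other subunit of calprotectin, had 0 reads in all 6 samples.

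Neutrophils carry both calprotectin subunits and lipocalin 2 in quantity, so their markers were summed. Of 8 neutrophil markers, Mpo, Elane, Csf3r and Ngp had 0 reads throughout and 7 were at the floor in every sample. Their summed TPM was 0.0564 to 0.159 in Ctrl and 0.0261 to 0.161 in Nfkbiz KO, ranges that overlapped. All 6 hepatocyte markers were at the floor, with summed levels of at most 0.163 TPM. The 7 macrophage markers summed to 2.55 to 3.66 TPM in Ctrl and to 2.48 to 4.57 in Nfkbiz KO, the 4 keratinocyte markers to 2.45 to 3.41 and 2.47 to 2.51, and the 5 lymphocyte markers to 0.0492 to 0.247 and 0.107 to 0.167. Sums moved with the groups for 4 fibroblast markers, at 389 to 446 TPM in Ctrl and 292 to 322 in Nfkbiz KO, and for 4 endothelial markers, at 0.550 to 0.827 and 1.32 to 1.85 TPM. Single genes made most of these sums. Col1a1 had 367 ± 25.2 TPM in Ctrl and 263 ± 17.4 in Nfkbiz KO, and Dcn was also lower, whereas Pdgfra had a log2 fold change of 0.00 and Lum was at the floor. Cdh5 had 0.548 ± 0.139 and 1.54 ± 0.313 TPM, whereas Pecam1 had 0.0984 and 0.0724, Tek 0.0295 and 0.0135, and Kdr 0.00359 and 0.0232 TPM. Their part in the changes of the defense genes was not tested.

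Hp encodes haptoglobin, which captures free hemoglobin. It had 16, 5 and 20 reads in Ctrl and 0, 1 and 1 reads in Nfkbiz KO, and it did not pass the filter on low counts. Its TPM values were 0.968, 0.173 and 0.895 in Ctrl and 0, 0.0560 and 0 in Nfkbiz KO, where all 3 samples were at the floor. Its groups were apart, with p = 0.1 in a two-sided exact permutation test, which cannot go lower with 3 samples against 3. Pooled, 41 Ctrl and 2 Nfkbiz KO reads gave a CPM ratio of 20.7 with an exact 95% interval of 5.37 to 176, which covers counting error only. Without the filter, edgeR gave a log2 fold change of -4.15 (adjusted p = 8.5e-05) and DESeq2 gave -4.40 (adjusted p = 0.0038). In that edgeR fit the prior degrees of freedom were infinite, so that the spread of Hp came from the trend over all genes and not from its own samples, and a fitted fold at so few reads depends on the prior count. Orm1, which encodes the plasma protein orosomucoid, had 0, 2 and 1 reads in Ctrl and 0 in each Nfkbiz KO sample.

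**Figure D1:**
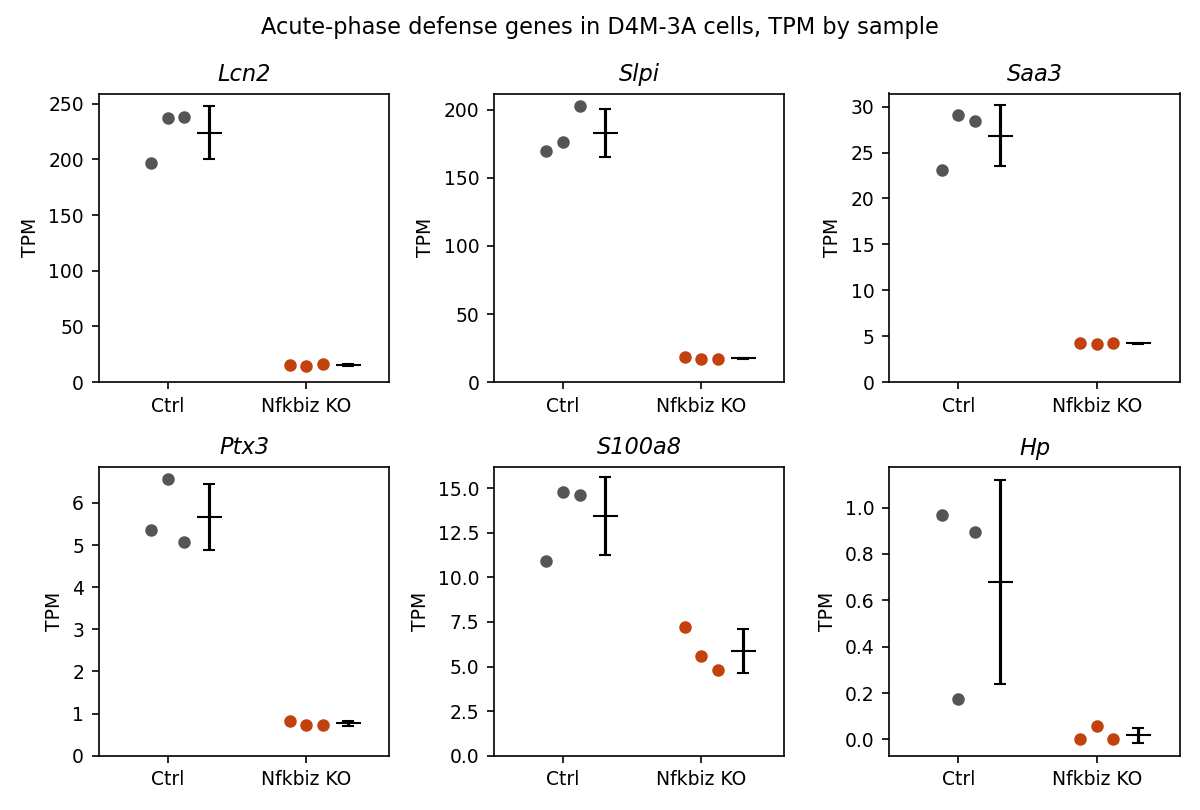
TPM of the 6 genes of the set above the floor in at least 1 sample, by sample (points) with group mean and SD (bars), each panel on its own linear axis. For Lcn2 the Ctrl samples sit between 197 and 238 TPM and the Nfkbiz KO samples between 14.6 and 15.9 TPM, and in no panel do the groups overlap.

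**Figure D2:**
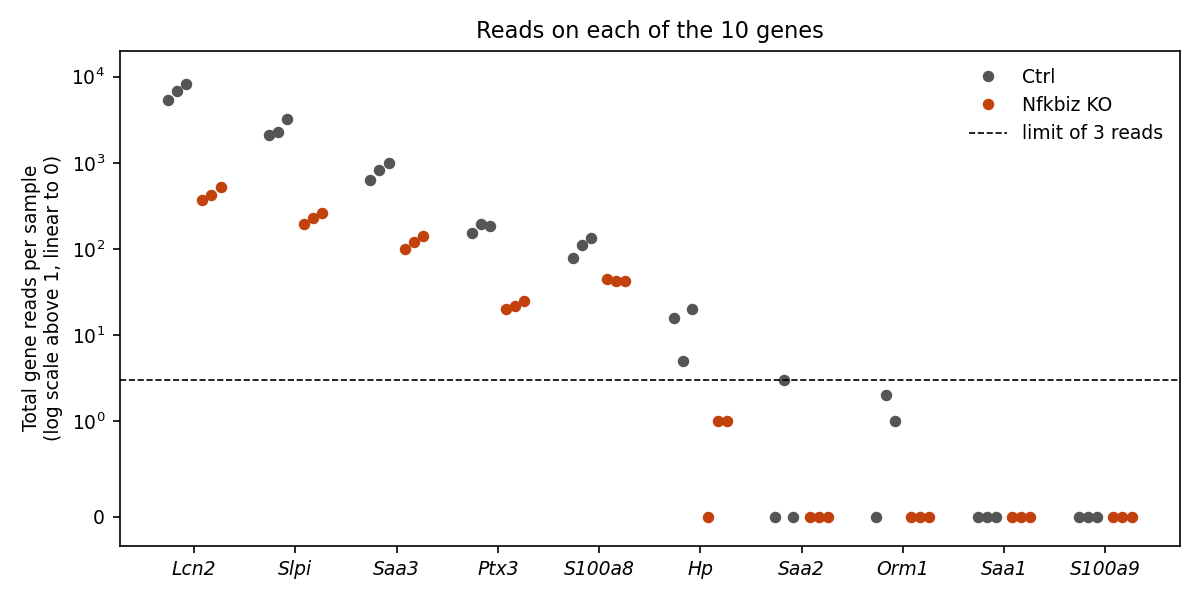
Gene reads of all 10 genes in each sample on a log axis that is linear below 1, with the detection floor of 3 reads. Saa1 and S100a9 sit at 0 in all 6 samples, Saa2 and Orm1 reach at most 3 reads, and Hp is above the floor in Ctrl samples only.

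Among the 5 genes tested, 5 were lower and 0 higher in Nfkbiz KO at an adjusted p of 0.05 or less (edgeR), where the shares of all tested genes were 18.4% lower and 18.2% higher. The set was chosen with earlier results of these data known, so this contrast describes the set and is not independent support. On the scale of limma with log2(TPM + 1) the split of all genes moved from 2647 lower and 2627 higher to 1327 lower and 3004 higher, and the 5 genes were still lower. The groups did not overlap and were lower in Nfkbiz KO for all 5, against 24.5% of tested genes, and the exact permutation test gave p = 0.1 for each. The same 5 genes passed the filter on the Nfkbiz KO libraries alone. With the study's thresholds, a fold change above 2 and a difference of means above 4, taken here as TPM, the 5 genes were also past the threshold, as were 1.03% of tested genes in the same direction. The sources used here do not give the unit of that difference, and with RPKM only Lcn2, Slpi and Saa3 passed. The median log2 fold change of the 5 was -3.01, and that of all tested genes -0.02.

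**Figure D3:**
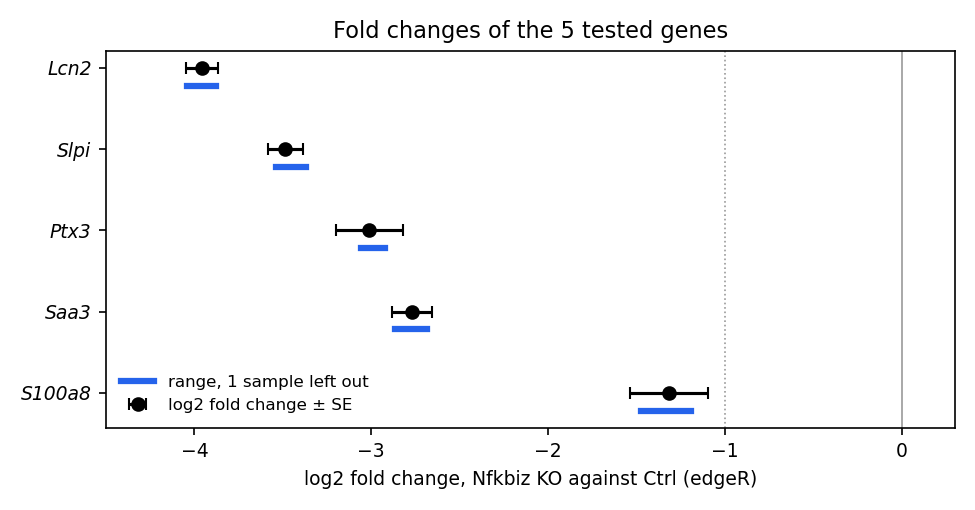
Log2 fold change of Nfkbiz KO against Ctrl for the 5 tested genes (points, with SE as bars), with the range on leaving out each sample in turn (blue) and dotted at a 2-fold decrease. Every range lies below 0, from Lcn2 at -3.96 to S100a8 at -1.32.

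The fold changes were unequal within the set. In log2 CPM, the ratio of Lcn2 to Saa3 fell from 3.06 ± 0.0322 in Ctrl to 1.85 ± 0.0478 in Nfkbiz KO (SD, n = 3 each), and the ratio of Lcn2 to S100a8 changed by -2.68. The ratio of Lcn2 to Slpi changed by -0.48. Of the 10 pairs of tested genes, 9 had ratios that did not overlap between the groups (exact permutation test, p = 0.1 each, 0.111 after adjustment over the 10 pairs). The exception was Saa3 over Ptx3, which differed by 0.16 with overlapping groups (exact permutation test, p = 0.4). The design cannot reach a p of 0.05 for any pair. The pairs share genes, so their ratios are not separate observations. How often ratios of other tested genes did not overlap was not computed, so the count of pairs has no background. Among single tested genes, 24.5% were lower in Nfkbiz KO without overlap in log2 CPM.

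Levels in TPM were ordered Lcn2, Slpi, Saa3, S100a8, Ptx3 and Hp in Ctrl. Of neighbors in this order, Lcn2 and Slpi overlapped and the others did not. In Nfkbiz KO the order was Slpi, Lcn2, S100a8, Saa3, Ptx3 and Hp, with no overlap between neighbors, so Lcn2 passed below Slpi and Saa3 below S100a8. The coefficient of variation of the 5 tested genes in TPM was 9.52% to 16.3% among Ctrl samples and 1.70% to 21.1% among Nfkbiz KO samples. It was larger among Ctrl samples for each gene but S100a8, which had 16.3% in Ctrl and 21.1% in Nfkbiz KO. Over genes at large, Ctrl samples also differed more from each other. Chi-square per degree of freedom, which grows with differences beyond counting error, was 25.8 to 65.9 between Ctrl samples. Between Nfkbiz KO samples it was 3.41 to 5.89, so their closeness is not particular to these genes.

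**Figure D4:**
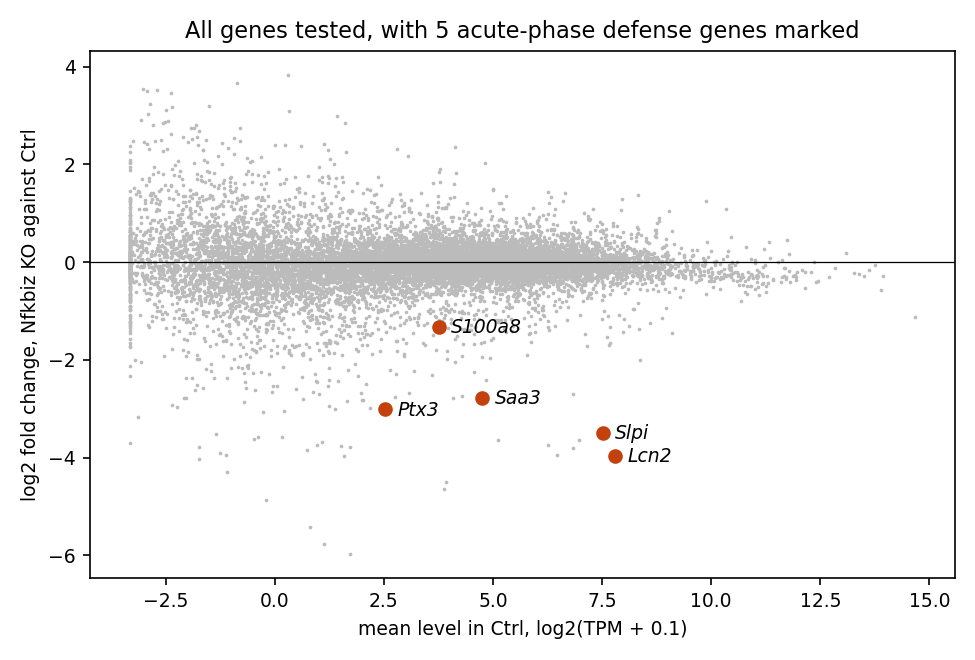
Log2 fold change against mean level in Ctrl, as log2(TPM + 0.1), for all tested genes (gray), with the 5 acute-phase defense genes marked. All 5 lie below -1, and Lcn2 combines 224 TPM in Ctrl with the 10th lowest fold change.

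The profile of Lcn2 over the 6 samples was compared with those of the other tested genes by the Euclidean distance of centred log2 CPM. The nearest were Steap4, a metalloreductase (distance 0.333, log2 fold change -3.94), and C3, the central complement component (0.542, -3.64). They were followed by Ehf, an epithelial ETS factor (0.620, -3.84, and -1.19 with limma on log2(TPM + 1)), and Prss22, a serine protease (0.723, -3.65). Slpi lay at a distance of 0.619, whereas S100a8, at 3.31, was 263rd in this order. A short distance says that these genes fell by a like amount in these samples.

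Of 25 other acute-phase protein genes, 17 had too few reads for the test. Of the 8 tested, 5 were lower and 0 higher, with a median log2 fold change of -0.44. Over all tested genes, 18.4% were lower and 18.2% higher, with a median of -0.02. Serpina3g, a protease inhibitor, fell from 3.81 ± 0.617 to 0.657 ± 0.404 TPM (log2 fold change -2.68, adjusted p = 8e-05, edgeR, and -1.56 with limma on log2(TPM + 1)). Cp, which encodes the copper ferroxidase ceruloplasmin, fell from 207 ± 23.4 to 69.5 ± 0.998 TPM (log2 fold change -1.66, adjusted p = 4.2e-09, edgeR). C4b, Mt1 and Mt2 fell by less, with log2 fold changes of -0.78, -0.43 and -0.33, and were named after their values were seen. Limma called 3 of the list lower on either TPM scale. Of 25 other antimicrobial genes, 6 were tested, of which 3 were lower and 0 higher. Nos2, inducible nitric oxide synthase, had a log2 fold change of -1.67 (SE 0.11, adjusted p = 1.3e-07, edgeR), and Rnase4, a secreted ribonuclease, -1.11 (SE 0.090, adjusted p = 1.2e-06, edgeR).

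Relatives of the set by protein family went in both directions, as tested genes did at large. Of 12 tested of 25 listed, 5 were lower and 3 higher, against 18.4% and 18.2% of all tested genes. The median log2 fold change of the 12 was -0.26. Nptx1, a neuronal pentraxin related to Ptx3, rose from 17.4 ± 2.20 to 95.0 ± 2.98 TPM (log2 fold change 2.36, adjusted p = 2.2e-10, edgeR). Apod, a lipocalin like Lcn2, rose from 6.82 ± 0.522 to 35.5 ± 2.19 TPM (log2 fold change 2.31, adjusted p = 1.8e-09, edgeR). The 5 relatives that fell were all S100 genes, S100a1, S100a13, S100a11, S100a6 and S100a4, with log2 fold changes from -0.75 to -0.31, and they were named after their values were seen. Limma on log2(TPM + 1) and log2(TPM + 0.1) called 3 and 2 relatives lower.

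Among 24 receptors and binding partners of the encoded proteins, 15 were tested, of which 6 were lower and 3 higher (median log2 fold change -0.10). Of all tested genes, 18.4% were lower and 18.2% higher, so the share of higher genes was close to that of all genes. Tnfaip6, which encodes a hyaluronan-binding partner of pentraxin 3, fell from 3.21 ± 0.537 to 0.256 ± 0.115 TPM (log2 fold change -3.79, adjusted p = 8e-06, edgeR, and -1.74 with limma on log2(TPM + 1)). Has2, the hyaluronan synthase, had a log2 fold change of -1.66 (adjusted p = 5e-08, edgeR). Ager, the receptor RAGE that binds S100 proteins, had -1.08 (adjusted p = 0.028, edgeR), and this call was lost under 7 of 13 alternatives. The 3 higher genes were Grn, Tlr4 and Tlr2, with log2 fold changes of 0.69, 0.54 and 0.43, named after their values were seen.

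Of 34 genes for upstream ligands, receptors and factors, 29 were tested, with 18 lower, 6 higher and a median log2 fold change of -0.26, and Nfkbiz is among the lower. The shares of all tested genes were 18.4% lower and 18.2% higher, the latter close to that of this list. On the scales of log2(TPM + 1) and log2(TPM + 0.1), limma called 11 and 11 of the list lower and 8 and 7 higher. Osmr, the oncostatin M receptor, fell from 3.95 ± 0.675 to 0.595 ± 0.131 TPM (log2 fold change -2.82, adjusted p = 1.2e-08, edgeR, and -1.63 with limma on log2(TPM + 1)). Of the C/EBP factors listed, Cebpd fell from 203 ± 24.5 to 67.6 ± 7.09 TPM and Cebpb from 326 ± 58.8 to 136 ± 16.7 TPM. Their log2 fold changes were -1.68 (adjusted p = 1.1e-07, edgeR) and -1.37 (adjusted p = 7.3e-06, edgeR). Cebpa, the other C/EBP factor listed and named after its values were seen, was higher (log2 fold change 1.15, adjusted p = 0.0092, edgeR) at 0.698 ± 0.158 and 1.67 ± 0.332 TPM. The part of the C/EBP factors in the changes of the defense genes was not tested. Bcl3, another atypical IκB protein, had a log2 fold change of -1.45 (adjusted p = 5.9e-09, edgeR). Besides Cebpa, the higher genes were Il17ra, Tnfaip3, Nfkb2, Rel and Relb, with log2 fold changes of 0.61, 0.46, 0.37, 0.31 and 0.27. Of the other NF-κB subunits listed, Nfkb1 was lower (-0.18) and Rela was not called (0.09). Socs3 and Stat3 were lower, at -1.07 and -0.63. These genes were also named after their values were seen. Among ligands that induce acute-phase genes, Il1b, Il17a and Osm had 0 reads in all 6 samples. Il6 fell from 22.6 ± 3.63 to 9.97 ± 0.880 TPM (log2 fold change -1.28, adjusted p = 1.4e-06, edgeR) and Lif from 119 ± 7.29 to 99.6 ± 3.25 TPM (log2 fold change -0.36, adjusted p = 0.00017, edgeR), both named after their values were seen.

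**Figure D5:**
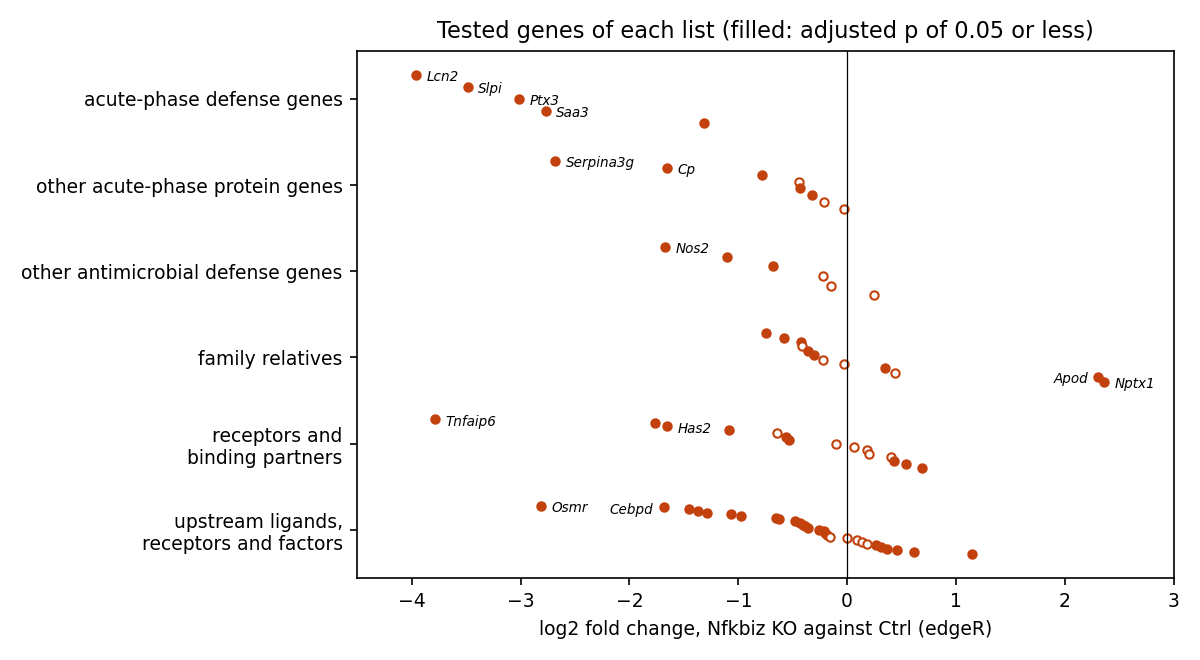
Log2 fold change of each tested gene of the 6 lists, filled at an adjusted p of 0.05 or less. All 5 acute-phase defense genes tested lie left of -1, whereas family relatives reach 2.36 for Nptx1.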

How the data were processed

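RNA of 3 Ctrl and 3 Nfkbiz KO samples of D4M-3A cells was sequenced in paired ends. Reads were mapped by the authors in CLC Genomics Workbench. The authors counted them without regard to strand, and deposited raw read counts per gene, total and unique. The deposited TPM and RPKM values were computed by the authors from exons, and their decimal commas were converted. The labels name the build GRCm38 and the study's methods GRCm39, whose annotation gave the gene coordinates here, while promoter windows are on GRCm38.p6. Unique reads were 96.5% to 96.9% of 32219900 to 44927203 reads per sample.

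Total gene reads were tested with edgeR 4.0.16 in R 4.3.3 (TMM, filterByExpr at its defaults, minimum count 10 and minimum total 15, quasi-likelihood test, Benjamini-Hochberg adjustment). The SE is the size of the log2 fold change over the square root of F. Groups came from the labels. Alternatives were RLE factors, DESeq2 1.42.0, no filter, unique reads, limma 3.58.1 on log2(TPM + 1) and log2(TPM + 0.1), a replicate block, other difference cut-offs and each sample left out in turn. Leaving out samples for the Hp ratio was added after seeing the data. On counts simulated from the fitted model, with all changes 2-fold or larger, 188 of 198 changed genes were recovered and 18 unchanged genes were called. Far fewer genes changed in the simulation than were called in these data, and recovery of smaller changes was not measured.

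The 10 genes and the other lists were chosen with earlier results of these data known. Named genes are the 10, Nfkbiz, at most 4 called genes per list with an absolute log2 fold change of 1 or more, and the 5 nearest to Lcn2. Of the named genes, 2 are not reported here. Promoters were matched by symbol to RefSeq's table.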

Additional observations from a re-analysis of the deposited data

How the results depend on the processing

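The log2 fold changes of Lcn2, Slpi, Ptx3, Saa3 and S100a8 kept their direction and their adjusted p under 0.05 in all 13 alternatives each. Lcn2 ranged from -4.04 to -3.88 with each sample left out in turn and from -3.96 to -3.77 otherwise, S100a8 from -1.47 to -1.19 and from -1.32 to -1.08, and the adjusted p of S100a8 reached 0.011. With limma on log2(TPM + 1), a scale that compresses low levels, Ptx3 moved to -1.91, Tnfaip6 to -1.74, Osmr to -1.63, Serpina3g to -1.56, Ehf to -1.19 and Ager to -0.19. The count of lower genes of the set was 5 or 6, since Hp was called where the filter let it in, and its CPM ratio was 14.96 to 27.3 with each sample left out.

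Limma on log2(TPM + 1) and log2(TPM + 0.1) called fewer lower genes: 3 and 3 in place of 5 other acute-phase genes, 3 and 2 in place of 5 family relatives, and 11 and 11 in place of 18 upstream genes. They called 8 and 7 upstream genes higher in place of 6. All tested genes split into 1327 lower and 3004 higher, and 1279 lower and 2947 higher, on these scales, whose median log2 fold changes were 0.0625 and 0.0803. The cause was not tested. With a difference of RPKM, 3 genes of the set passed the study's thresholds. Ager had an adjusted p of up to 0.32.

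No pairing of samples by replicate number was seen (correlations of deviations 0.0367, -0.0233 and 0.0256), and the labels do not say whether samples were paired. With the replicate block, Lcn2 had a log2 fold change of -3.96, the set 5 lower genes, and the upstream list 17.

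Depth limits Hp, Orm1, Saa1, Saa2 and S100a9, for which differences under the floor of 3 reads were not detectable.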
